A study of Homo sapiens with 6 samples.

Results

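The let-7 and miR-98 family was read by 9 probes of a panel of 798 human microRNA (miRNA) probes, and the members are the probes with these panel names: hsa-let-7a-5p, hsa-let-7b-5p, hsa-let-7c-5p, hsa-let-7d-5p, hsa-let-7e-5p, hsa-let-7f-5p, hsa-let-7g-5p, hsa-let-7i-5p and hsa-miR-98-5p. The series holds 6 bulk RNA samples of A549, an established human lung adenocarcinoma cell line, each counted once on the nCounter human v3 miRNA panel, where a miRNA is tagged by ligation and its barcoded probe is counted without amplification. The 3 siCTRL libraries came from cells given 100 pmol of a scramble control siRNA. The 3 siAPEX1 libraries came from cells given 100 pmol of an siRNA directed to APEX1, the gene of the base excision repair endonuclease APE1, and all cells were collected 72 h after transfection. The comparison asked which miRNAs change when APE1 is depleted. The panel has no probe for APEX1, so the depletion itself was not measured in these libraries.

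let-7 miRNAs are among the most abundant miRNAs of differentiated tissue and are known in the lung as repressors of growth genes, with RAS, MYC and HMGA2 transcripts as textbook targets. A mature miRNA guides Argonaute to a transcript mainly through its seed, bases 2 to 8 counted from the 5′ end, so that paralogs with 1 seed have largely overlapping targets. The DICER1 transcript, which encodes the enzyme that cuts miRNA precursors, is itself a known let-7 target.

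All 9 mature sequences were 22 bases long and carried the same seed, and they are printed here because the probes had to tell apart RNAs that differ by as little as 1 base. The sequences are those of RefSeq (GRCh38.p14), and capitals mark the seed.
hsa-let-7a-5p: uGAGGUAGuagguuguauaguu
hsa-let-7b-5p: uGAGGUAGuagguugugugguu
hsa-let-7c-5p: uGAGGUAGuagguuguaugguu
hsa-let-7d-5p: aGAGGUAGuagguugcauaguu
hsa-let-7e-5p: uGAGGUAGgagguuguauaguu
hsa-let-7f-5p: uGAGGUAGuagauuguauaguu
hsa-let-7g-5p: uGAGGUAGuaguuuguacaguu
hsa-let-7i-5p: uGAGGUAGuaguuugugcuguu
hsa-miR-98-5p: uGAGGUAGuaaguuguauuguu

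Outside the seed the paralogs differed from let-7a-5p at 1 to 4 positions, given with the let-7a base first, the position from the 5′ end, and then the base of the other member. let-7c-5p differed by A19G, let-7e-5p by U9G and let-7f-5p by G12A alone. let-7b-5p carried A17G and A19G, let-7d-5p U1A and U16C, let-7g-5p G12U and U18C, and miR-98-5p G11A and A19U. let-7i-5p was the most distant from let-7a-5p, with G12U, A17G, U18C and A19U. Over the 36 pairs of members the number of differences ran from 1 (4 pairs) to 6 (1 pair). How far a probe also counts its close paralogs was not tested, and the levels below are those of the probes.

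The 9 mature miRNAs are encoded by 12 genes on 8 chromosomes (GRCh38.p14, coordinates of the mature sequence; the annotation used gives the span of a gene but not whether the miRNA lies in an exon or an intron). let-7a-5p has 3 genes, on chromosome 9 (94175962 to 94175983, plus strand), chromosome 11 (122146568 to 122146589, minus strand) and chromosome 22 (46112752 to 46112773, plus strand). The first lies within the long non-coding gene MIRLET7A1HG together with MIRLET7F1, whose mature sequence starts 391 bases further on, and MIRLET7D, 2879 bases further on. The second lies within the span of MIR100HG, and the third within MIRLET7BHG, 939 bases from MIRLET7B. let-7i-5p comes from chromosome 12 (62603691 to 62603712, plus strand), within MIRLET7IHG. let-7e-5p comes from chromosome 19 (51692793 to 51692814, plus strand), within the span of the protein-coding SPACA6, with the genes of miR-99b and miR-125a as close neighbours. let-7c-5p comes from chromosome 21, within MIR99AHG, and let-7g-5p from chromosome 3, within the protein-coding WDR82. miR-98-5p and the second let-7f gene lie 947 bases apart on chromosome X, within HUWE1, which encodes a ubiquitin ligase.

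Total counts were 370087 to 488407 in siCTRL and 312152 to 331524 in siAPEX1. The 9 members together took 21.2% to 23.4% of all miRNA counts in siCTRL and 21.7% to 22.9% in siAPEX1. A level is given as a scaled count, the raw count divided by a library factor from the positive controls and 5 housekeeping mRNAs, with background left in. Of the 798 miRNAs, 152 were tested because they lay above the background limit, the mean plus 2 SD of the negative controls, in at least 3 libraries. All 9 members were above that limit in all 6 libraries, at 4.87 times (let-7f-5p) to 559 times (let-7a-5p) its value. The libraries were of bulk RNA, so fewer cells with a miRNA and less of it per cell cannot be told apart. Among 7 epithelial marker miRNAs only miR-200b-3p was tested, with a summed scaled count of all 7 of 278 to 342 in siCTRL and 265 to 322 in siAPEX1. None of the 4 blood, 3 muscle, 1 neuron and 1 liver markers, which include miR-451a, miR-124-3p and miR-122-5p, was high enough to be tested. The summed scaled count of the blood markers was 94.8 to 107 in siCTRL and 104 to 136 in siAPEX1. These sums hold the background of every probe in them, and the blood sum is not read as a signal. The mean raw count of a negative control was 24.5 to 29.25 in siCTRL and 27.5 to 31.25 in siAPEX1.

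The family was led by let-7a-5p, which was the most abundant of all 798 miRNA probes in each of the 6 libraries. Its scaled count was 26310.1, 28328 and 36248 in siCTRL replicates 1 to 3 and 26140.5, 28159 and 27873 in siAPEX1 replicates 1 to 3. The groups overlapped, and siCTRL replicate 3 was the high sample. That library was the highest of the 6 for each of the 9 members and had the lowest scaling factor of its group (0.884, against 1.13 and 1.34), and the fold changes without it are given below.

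let-7i-5p, from its single gene on chromosome 12, ranked 4th or 5th among all miRNA probes. Its scaled count was 10839, 11459.9 and 13978 in siCTRL and 8186, 8955 and 9727 in siAPEX1. The groups did not overlap, with every siAPEX1 library below every siCTRL library. let-7b-5p, which shares a locus with the third let-7a gene, ranked 7th to 11th. Its scaled count was 5512, 6208 and 7902 in siCTRL and 5923, 6172 and 6825 in siAPEX1, and the siAPEX1 values all fell inside the siCTRL range.

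let-7e-5p and let-7g-5p formed a middle pair. let-7e-5p stood at 2550.3, 2849.9 and 3581 in siCTRL and at 2093, 2215 and 2537 in siAPEX1. let-7g-5p stood at 2571, 2693 and 3092 in siCTRL and at 2002, 2253 and 2393 in siAPEX1. For both miRNAs the 3 siAPEX1 libraries lay below the 3 siCTRL libraries, for let-7e-5p by a narrow margin.

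The other 4 members were the least abundant. let-7d-5p, encoded with let-7a-1, was at 842, 891 and 1041 in siCTRL and at 766, 897 and 964 in siAPEX1. let-7c-5p was at 669.9, 734 and 922 in siCTRL and at 714, 720.5 and 824 in siAPEX1. Both overlapped between the groups. miR-98-5p was at 621, 635 and 707 in siCTRL and at 479, 554 and 598 in siAPEX1. let-7f-5p was at 442, 419.8 and 511 in siCTRL and at 389, 399 and 377 in siAPEX1. These last members, which share the HUWE1 locus, did not overlap between the groups and were lower in siAPEX1.

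**Figure D1:**
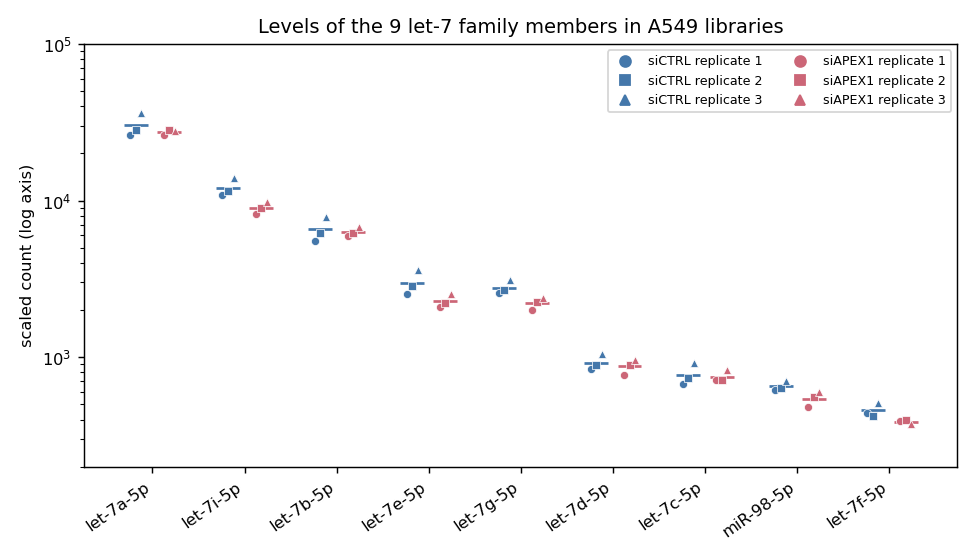
Scaled count (log axis) of each let-7 family member in the 3 siCTRL and 3 siAPEX1 libraries, ordered by the siCTRL mean; points are libraries and bars are group means. The levels ran from a siCTRL mean of 30295 for let-7a-5p to 458 for let-7f-5p, and siCTRL replicate 3 was the highest library for each member.

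In siCTRL the order of the mean levels was let-7a-5p, let-7i-5p, let-7b-5p, let-7e-5p, let-7g-5p, let-7d-5p, let-7c-5p, miR-98-5p and let-7f-5p. The siCTRL ranges of neighbours overlapped for let-7e-5p and let-7g-5p, whose order held in 2 of 3 siCTRL libraries, so these levels were not separated. They also overlapped for let-7d-5p and let-7c-5p and for let-7c-5p and miR-98-5p, although within each library these orders held in 3 of 3. The other 5 neighbouring pairs did not overlap. All 9 positions were kept with the background subtracted, with positive controls alone as the scale, in the deposited scores, and without each siCTRL library in turn.

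Members encoded at 1 locus did not have like levels. let-7a-5p was 59.5 to 74.0 times as high as let-7f-5p over the 6 libraries and 28.9 to 34.8 times as high as let-7d-5p, although MIRLET7A1, MIRLET7F1 and MIRLET7D lie within 1 host gene. let-7a-5p has 2 further genes and let-7f-5p has 1, and probes can differ in efficiency, so these ratios do not measure the output of 1 locus. let-7b-5p and let-7c-5p, which differ by 1 base and come from different chromosomes, kept a nearly fixed ratio, 8.42 ± 0.17 in siCTRL and 8.38 ± 0.16 in siAPEX1 (mean ± SD, n = 3). Cross-counting between their probes was not tested, so this ratio may not be that of the RNAs. Of the members 1 base from let-7a-5p, let-7c-5p counted 2.54% to 2.96% of it, let-7e-5p 7.87% to 10.1% and let-7f-5p 1.35% to 1.68%.

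The rest of the panel added little on the same seed or the same precursors. RefSeq listed 2 further miRNAs with the let-7 seed, of which miR-4458 was on the panel and was above the limit in 0 of 6 libraries (raw counts of 12, 23 and 18 in siCTRL and 22, 21 and 19 in siAPEX1). Of 10 passenger arms, the other strands of these precursors, only miR-98-3p was matched to a panel name, and it too was above the limit in 0 of 6 libraries (raw counts of 18, 26 and 12 in siCTRL and 18, 20 and 22 in siAPEX1). Neither of these probes could be told from background, so the results rest on the 9 members.

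The groups were compared with the quasi-likelihood test of edgeR on raw counts with the library factors as offsets, and p-values were adjusted by Benjamini-Hochberg over the 152 tested miRNAs with a threshold of 0.1. In siAPEX1, 2 of the 9 members were lower and 0 were higher, against 50.7% lower and 9.87% higher among all tested miRNAs. let-7i-5p had a mean scaled count of 12092 ± 1662 in siCTRL and 8956 ± 771 in siAPEX1 (SD, n = 3), a log2 fold change of −0.43 ± 0.17 SE with an edgeR adjusted p of 0.0187. let-7e-5p had means of 2994 ± 530.3 and 2282 ± 229 (SD, n = 3), a log2 fold change of −0.39 ± 0.18 SE with an edgeR adjusted p of 0.0561. Their levels fell by 25.9% and fell by 23.8%. let-7i-5p passed in edgeR without each library in turn (adjusted p of 0.00994 to 0.0976), whereas let-7e-5p did not pass without siCTRL replicate 2 (0.143) or 3 (0.301), or without siAPEX1 replicate 1 (0.122) or 2 (0.210). Without siCTRL replicate 3 the log2 fold change of let-7e-5p was −0.24 and that of let-7i-5p −0.32.

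let-7g-5p was next, with means of 2785 ± 273 in siCTRL and 2216 ± 198 in siAPEX1 (SD, n = 3) and a log2 fold change of −0.33 ± 0.18 SE, and missed the threshold (edgeR adjusted p of 0.108). miR-98-5p had means of 654 ± 46.3 and 544 ± 60.1 (SD, n = 3), with a log2 fold change of −0.27 ± 0.17 SE and an edgeR adjusted p of 0.159. let-7f-5p had means of 458 ± 47.8 and 388 ± 11.1 (SD, n = 3), with a log2 fold change of −0.24 ± 0.17 SE and an edgeR adjusted p of 0.212. These 3 members had separated groups but did not pass. Without siAPEX1 replicate 3, let-7g-5p (−0.39, edgeR adjusted p of 0.0328) and miR-98-5p (−0.34, 0.0544) passed as well, and let-7g-5p also passed with the negative-control mean subtracted (−0.34, 0.0951).

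let-7a-5p, the most abundant member, had means of 30295 ± 5253 in siCTRL and 27391 ± 1092 in siAPEX1 (SD, n = 3), with a log2 fold change of −0.15 ± 0.15 SE and an edgeR adjusted p of 0.401. For let-7d-5p the log2 fold change was −0.08 ± 0.17, for let-7b-5p −0.05 ± 0.17 and for let-7c-5p −0.04 ± 0.17, with edgeR adjusted p of 0.725, 0.820 and 0.861. All 4 were within their standard errors of 0. Without siCTRL replicate 3 they were not negative, at 0.0038 for let-7a-5p, 0.02 for let-7d-5p, 0.11 for let-7b-5p and 0.10 for let-7c-5p, and none of them passed in edgeR. The median log2 fold change of the 9 members was −0.24, beside −0.34 over all tested miRNAs. The scaled groups did not overlap, with siAPEX1 lower, for 5 of the 9 members, against 52.6% of all tested miRNAs. The summed scaled count of the family was 57519 ± 9265 in siCTRL and 49712 ± 2764 in siAPEX1 (mean ± SD, n = 3) and overlapped between the groups.

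**Figure D2:**
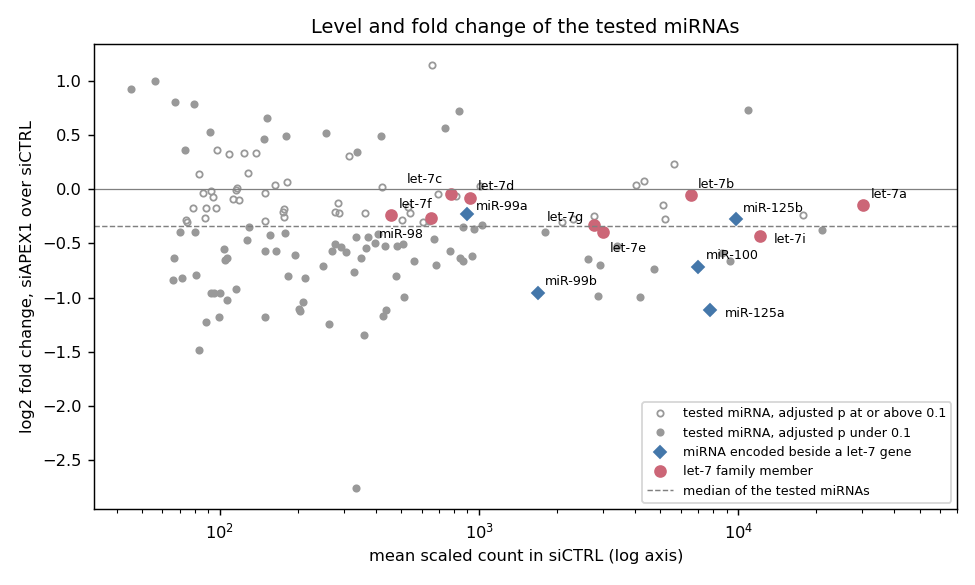
Log2 fold change (siAPEX1 over siCTRL) of the 152 tested miRNAs against their mean scaled count in siCTRL (log axis); red points are let-7 family members, blue diamonds are miRNAs encoded beside a let-7 gene, filled grey points passed an edgeR adjusted p of 0.1 and open ones did not. The members lay between −0.43 and −0.04, around the dashed median of −0.34 and above it for 7 of 9, while miR-100-5p, miR-99b-5p and miR-125a-5p lay below all members.

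Directions of single members depended on what was taken as constant between the groups. With TMM, which centres the tested miRNAs on themselves and so shifted their median from −0.34 to 0.02, 4 of the 9 members were higher and 0 lower, against 30.9% higher and 30.3% lower among all tested miRNAs. The 4 members were let-7c-5p (log2 fold change 0.33), let-7b-5p (0.32), let-7d-5p (0.28) and let-7a-5p (0.23), with edgeR adjusted p of 0.00219, 0.00369, 0.00307 and 0.0427. let-7i-5p and let-7e-5p, which had fallen, were then at −0.07 and −0.02, with edgeR adjusted p of 0.424 and 0.781. Across the scalings tried (positive controls with housekeeping mRNAs, TMM, DESeq2 size factors, positive controls alone, total miRNA count), the log2 fold changes of let-7e-5p and let-7i-5p were negative under each, and each of the other 7 members had a positive one under at least 1.

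**Figure D3:**
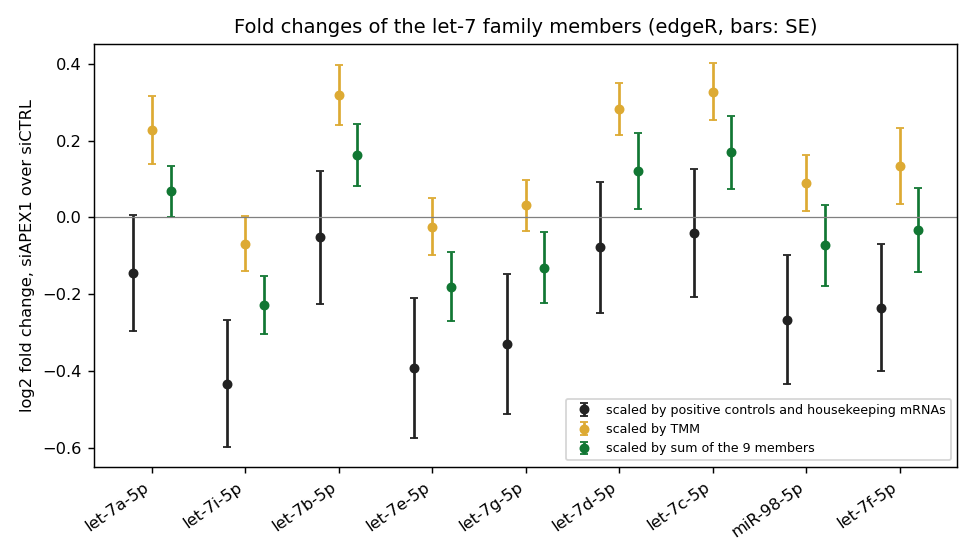
Log2 fold change (siAPEX1 over siCTRL) of each member in edgeR, with bars of 1 SE, under 3 choices of library scale: positive controls with housekeeping mRNAs, TMM, and the sum of the 9 members. The choice moved all members together, while let-7i-5p stayed the lowest of the 9 and let-7b-5p and let-7c-5p the highest under each of these scales.

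The make-up of the family does not depend on the controls or on the housekeeping mRNAs. let-7a-5p held 52.2%, 52.2% and 53.3% of the summed family count in siCTRL replicates 1 to 3 and 56.0%, 56.0% and 53.5% in siAPEX1. let-7i-5p held 21.5%, 21.1% and 20.6% in siCTRL and 17.5%, 17.8% and 18.7% in siAPEX1. let-7b-5p held 10.9%, 11.4% and 11.6% in siCTRL and 12.7%, 12.3% and 13.1% in siAPEX1. The share of let-7i-5p was thus lower, and those of let-7a-5p and let-7b-5p higher, in all siAPEX1 libraries, for let-7a-5p only just so in siAPEX1 replicate 3.

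let-7e-5p went from 5.20% ± 0.11 to 4.58% ± 0.25 of the family and let-7c-5p from 1.35% ± 0.014 to 1.51% ± 0.076 (mean ± SD, n = 3), also without overlap. let-7g-5p (4.87% to 4.45%), let-7d-5p (1.62% to 1.76%), miR-98-5p (1.15% to 1.09%) and let-7f-5p (0.80% to 0.78%) overlapped between the groups. Shares that did not overlap thus numbered 5 of 9, 3 higher and 2 lower, against 61.2% for the counts of all tested miRNAs over the same sum. For these 5 members the exact two-sided permutation test gave p = 0.1, the smallest that 3 libraries against 3 allow, and 0.18 after adjustment over the 9 members. Shares sum to 100, so the share of let-7i-5p, which fell by 3.08 percentage points, and that of let-7a-5p, which rose by 2.53, are not separate measurements.

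**Figure D4:**
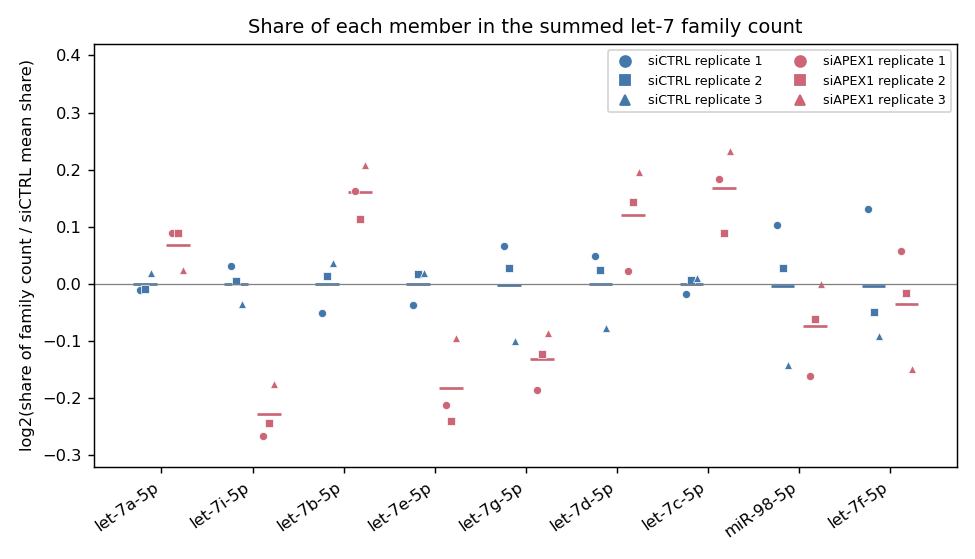
Share of each member in the summed family count of its library, as log2 of the share over the siCTRL mean share; points are libraries and bars are group means. The 3 siAPEX1 points lie below the siCTRL points for let-7e-5p and let-7i-5p and lie above them for let-7a-5p, let-7b-5p and let-7c-5p.

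With the summed family count as library size in the edgeR fit, let-7i-5p was the only member that passed, so that 1 of 9 was lower and 0 higher, against 42.1% lower and 17.1% higher among all tested miRNAs. Its log2 fold change relative to the family was −0.23 ± 0.08 SE (edgeR adjusted p = 0.0221). Over its 11 alternatives, those without each library in turn included, it ranged from −0.28 to −0.21, with adjusted p from 0.00434 to 0.0872. let-7e-5p (−0.18 ± 0.09) and let-7b-5p (0.16 ± 0.08) missed the threshold, with edgeR adjusted p of 0.108 and 0.110. Without siAPEX1 replicate 3, 2 members were lower (let-7e-5p at −0.23 and let-7i-5p at −0.25) and 2 higher (let-7a-5p at 0.09 and let-7b-5p at 0.14).

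Ratios between members need no scale at all. let-7a-5p was 2.43, 2.47 and 2.59 times as high as let-7i-5p in siCTRL replicates 1 to 3 and 3.19, 3.14 and 2.87 times as high in siAPEX1. The count of let-7b-5p over let-7i-5p was 0.509, 0.542 and 0.565 in siCTRL and 0.724, 0.689 and 0.702 in siAPEX1. let-7g-5p, whose G12U and U18C are both shared with let-7i-5p, was also higher against let-7i-5p in siAPEX1, at 0.231 ± 0.0086 and 0.247 ± 0.0037 (mean ± SD, n = 3). Of the 36 ratios 16 did not overlap between the groups, against 63.4% of all ratios of 2 tested miRNAs. let-7i-5p was lower against 6 of the 8 other members and let-7e-5p against 4, while let-7b-5p, let-7c-5p and let-7d-5p were each higher against 4 and lower against 0. As ratios of the same 9 counts, these are not independent of one another.

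Of 5 miRNAs encoded beside a let-7 gene, 3 were lower in siAPEX1 and 0 higher in the same edgeR fit, against the 50.7% lower and 9.87% higher among all tested miRNAs, with a median log2 fold change of −0.71 beside −0.34 over all tested miRNAs. miR-125a-5p, whose mature sequence starts 475 bases from that of let-7e-5p, fell by 1.11 on the log2 scale (± 0.18 SE, edgeR adjusted p = 7.01e-09). miR-99b-5p, 175 bases from let-7e-5p, fell by 0.95 (± 0.18 SE, edgeR adjusted p = 1.24e-06), and miR-100-5p, 5707 bases from the let-7a gene on chromosome 11, fell by 0.71 (± 0.17 SE, edgeR adjusted p = 0.000203). These 3 were lower under each scaling, TMM included. miR-99a-5p, 737 bases from let-7c-5p, was at −0.22 (edgeR adjusted p of 0.237). miR-125b-5p was at −0.28 (edgeR adjusted p of 0.142). Its genes lie further off, 1 at 46759 bases from let-7a-2 and another at 50415 bases from let-7c.

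At the chromosome 19 locus the probe counts therefore did not change in proportion. let-7e-5p differs by 1 base from the far more abundant let-7a-5p, and cross-counting by its probe was not tested. The ratios to let-7e-5p below may thus not be those of the RNAs. miR-125a-5p was 2.96, 2.71 and 2.26 times as high as let-7e-5p in siCTRL replicates 1 to 3 and 1.45, 1.52 and 1.74 times as high in siAPEX1. miR-99b-5p was 0.616, 0.567 and 0.521 times as high as let-7e-5p in siCTRL and 0.349, 0.384 and 0.405 times in siAPEX1. Both ratios were lower in siAPEX1 without overlap, as were those of 23.2% of the other 151 tested miRNAs to let-7e-5p. At the chromosome 21 locus the ratio of miR-99a-5p to let-7c-5p was 1.17 ± 0.12 in siCTRL and 1.02 ± 0.088 in siAPEX1 (mean ± SD, n = 3) and overlapped. For chromosome 11, miR-100-5p over let-7a-5p was 0.234 ± 0.025 in siCTRL and 0.155 ± 0.037 in siAPEX1 (mean ± SD, n = 3), lower without overlap. let-7a-5p also comes from genes on other chromosomes, so that ratio does not measure the output of 1 locus. A test of the difference between the loci was not run.

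Most precursors of the family share a feature beyond the seed, the letters GGAG between the mature arms. These letters are known as the element that the RNA-binding protein LIN28 reads in let-7 precursors before their uridylation. GGAG was searched on the precursor's own strand between the arms that RefSeq annotates. It stood in 8 of 11 let-7 and miR-98 precursors with both arms annotated (72.7%). Among all 743 human precursors with both arms, the family included, 60 had it (8.1%). The pieces of 4 precursors are shown because they include let-7a genes with and without the letters; capitals mark each GGAG.
MIRLET7E: gaGGAGgacacccaaGGAGauca
MIRLET7C: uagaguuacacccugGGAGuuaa
MIRLET7A2: uagaauuacaucaagGGAGauaa
MIRLET7A3: uggggcucugcccugcuaugggauaa

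The 3 precursors without GGAG were MIRLET7A3, MIRLET7B and MIR98. Both members called lower with positive controls and housekeeping mRNAs as the scale, let-7i-5p and let-7e-5p, have it. So do let-7c-5p, let-7d-5p and let-7g-5p, whose log2 fold changes on that scale were −0.04, −0.08 and −0.33. The members that lack it, let-7b-5p and miR-98-5p, were at −0.05 and −0.27. let-7a-5p and let-7f-5p come from several genes, and the second let-7f precursor had no second arm in the table. A match describes these letters only, and a link between GGAG and the fold changes was not tested.

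Over the 6 libraries the mean profile of the family (log2 scaled counts, centred) was highest in siCTRL replicate 3 (0.32) and lowest in siAPEX1 replicate 1 (−0.22). The 5 tested miRNAs outside the family with the most similar profile were miR-106b-5p, miR-93-5p, miR-1260a, miR-125b-5p and miR-423-3p, with a root mean square difference of 0.0477, 0.0540, 0.0598, 0.0657 and 0.0684 log2 units over the 6 libraries. The median over the tested miRNAs outside the family was 0.230, and the members themselves lay at 0.0632 (let-7a-5p) to 0.108 (let-7i-5p) from their own mean. These 5 were picked by their profile over both groups, so log2 fold changes close to those of the family follow from the choice. They ran from −0.29 to −0.22, and none of the 5 passed the threshold in edgeR. miR-106b-5p and miR-93-5p come from 1 cluster, within MCM7, a gene of the replicative helicase. The points share their library and its scaling factor, and the likeness is given as a description.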

How the data were processed

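RNA of 3 siCTRL and 3 siAPEX1 samples of A549 cells was profiled on the nCounter human v3 panel. The deposited values of each library are raw counts per probe, as the authors obtained them from the instrument. The authors also deposited 1 table of scores, in which the score of a probe rises linearly with its count, by 1 slope for all libraries (slopes of 0.761 to 1.26 among 126 probes; 0.910 for let-7a-5p, 0.766 for let-7i-5p); it served only as an alternative, divided by the library factors. How the score slopes were set is not given in the sources used here. The study's methods name NanoStringDiff for normalisation, which was not used here.

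The library factor was the slope of the 6 positive controls times the median relative level of 5 housekeeping mRNAs, once the mean of the 8 negative controls had been taken off. Background was left in the counts, which compresses fold changes of low probes; the limit of mean plus 2 SD was 53.1 to 75.8 counts. Counts were tested with edgeR 4.0.16 (robust quasi-likelihood) in R 4.3.3, with limma 3.58.1 and DESeq2 1.42.0 as alternatives, at an adjusted p of 0.1. In simulated data, 40 of 40 changed miRNAs among 152 were recovered for siAPEX1 against siCTRL, with 6 of 112 unchanged ones called. Recovery of log2 fold changes as small as those of the members was not tested, nor was the effect of an error in the library factors. The labels do not say that replicates were separate cultures, although the paper calls them biological replicates. The p-values reflect no more than the spread among these 6 samples, which may be technical. The edgeR test draws on the spread of all 152 tested miRNAs, so the SE of a member is not its own spread alone. No pair of libraries of a group agreed within sampling noise.

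Members and lists were chosen with earlier results of these data known. The text names the 9 members, 5 miRNAs encoded beside let-7 genes, miRNAs of the same seed or precursor, the 5 most similar profiles and marker miRNAs. Of the 798 panel names, 706 matched RefSeq.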

Additional observations from a re-analysis of the deposited data

How the results depend on the processing

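With the scale of the report 2 members were lower and 0 higher. The number lower was 0 with TMM, 0 with DESeq2, 9 with positive controls alone, 1 without a filter, 1 in the deposited scores, 3 with the negative-control mean subtracted, 5 with a replicate block and 1 to 4 in leaving out single libraries; the number higher was 4 with TMM, 4 with DESeq2, 2 with the total count and 0 in leaving out single libraries. Directions reversed with TMM for let-7a-5p (0.23), let-7b-5p (0.32), let-7c-5p (0.33) and let-7d-5p (0.28), with DESeq2 (0.22, 0.31, 0.32 and 0.27) and, with the total count, for let-7b-5p (0.18) and let-7c-5p (0.19); these scales take other quantities as constant, by construction. let-7e-5p lost its call with TMM, DESeq2, no filter (adjusted p of 0.103 in edgeR) and the scores (0.1003 in limma), and let-7i-5p with TMM and DESeq2. Relative to the family sum, where 1 member was lower and 0 higher, 2 were lower with background subtracted, 1 was higher with the limit met in all 6 libraries, and leaving out single libraries gave 1 to 2 lower and 0 to 2 higher. With the sum of the other 8 members, chosen after seeing the data, 2 were lower and 2 higher. The cause of the other changes was not tested.

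The labels do not say whether the replicate numbers pair the samples. Over the tested miRNAs, deviations of same-numbered libraries from their group means correlated at −0.589, −0.0132 and −0.493 for numbers 1 to 3. None was positive, so they gave no sign of deviations of single miRNAs shared by same-numbered libraries. The correlation is blind to a shift common to a whole library, so it does not settle whether the numbers pair the samples. The 5 members lower with the replicate block therefore stand beside the 2 without it. let-7f-5p lay nearest to background, at 4.87 to 9.39 times the limit, against 330.3 to 559 times for let-7a-5p.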
